A study of Homo sapiens with 6 samples.

Results

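HIF1A and EPAS1, which encode the oxygen-regulated subunits HIF-1alpha and HIF-2alpha, and 8 of the genes that hypoxia switches on in many cell types (VEGFA, CA9, ADM, ANGPTL4, NDRG1, BNIP3, EGLN3 and PDK1) were followed in RNA from 12Z cells. These 10 genes were taken by symbol from the 58336 gene identifiers of the count tables, and each symbol matched 1 identifier. 12Z is an established human endometriotic epithelial cell line. In the siBRG1 group, 12Z cells received an siRNA against SMARCA4, which encodes BRG1, the motor protein of some SWI/SNF complexes that shift nucleosomes. In the control group they received a non-targeting siRNA. Each group held 3 libraries (n = 3), and per the labels both shared 50 nM siRNA, growth in 10% serum, fresh medium at 24 h, 0.5% serum from 48 h and RNA taken at 72 h. The labels name no oxygen level, and they mention a drug or vehicle step without saying for which samples it was done. The comparison asked which transcripts of the hypoxia pathway differ when BRG1 is depleted.

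HIF-1alpha and HIF-2alpha are made continuously and are destroyed while oxygen is plentiful. Prolyl hydroxylases of the EGLN family mark them with oxygen as a substrate, the VHL ubiquitin ligase then binds the marked protein, and the proteasome removes it. When oxygen is scarce the subunits persist, pair with ARNT, and bind short DNA elements that hold the core ACGTG or GCGTG beside genes for glucose use, pH balance, vessel growth and mitochondrial turnover. RNA levels of HIF1A and EPAS1 therefore do not report the amount of HIF protein, which was not measured here. Many of the target genes also answer to other signals.

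The promoter sequences of CA9, ADM and BNIP3 are shown because each held the HIF core motif while the RNAs went different ways, with the largest rise of the 10 genes, the largest fall and a small fall. Each window runs 300 bases on the gene's own strand, from 250 bases before to 50 bases after a RefSeq start, on GRCh38.p14. Capitals mark every match to ACGTG or GCGTG on either strand, so a match on the other strand reads CACGT or CACGC. The CA9 window lies at chr9:35673678-35673977 on the plus strand, the ADM window at chr11:10304823-10305122 on the plus strand and the BNIP3 window at chr10:131981874-131982173 on the minus strand.
CA9: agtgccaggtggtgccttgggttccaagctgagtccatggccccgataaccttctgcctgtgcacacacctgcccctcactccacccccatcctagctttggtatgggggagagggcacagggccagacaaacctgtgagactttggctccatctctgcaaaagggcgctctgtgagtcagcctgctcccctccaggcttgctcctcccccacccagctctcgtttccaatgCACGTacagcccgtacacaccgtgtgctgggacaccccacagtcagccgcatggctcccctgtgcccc
ADM: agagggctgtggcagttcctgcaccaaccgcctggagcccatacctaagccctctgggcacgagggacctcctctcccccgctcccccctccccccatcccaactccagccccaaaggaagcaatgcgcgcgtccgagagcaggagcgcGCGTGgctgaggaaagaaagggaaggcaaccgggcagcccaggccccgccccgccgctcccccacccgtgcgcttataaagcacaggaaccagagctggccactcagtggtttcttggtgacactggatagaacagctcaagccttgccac
BNIP3: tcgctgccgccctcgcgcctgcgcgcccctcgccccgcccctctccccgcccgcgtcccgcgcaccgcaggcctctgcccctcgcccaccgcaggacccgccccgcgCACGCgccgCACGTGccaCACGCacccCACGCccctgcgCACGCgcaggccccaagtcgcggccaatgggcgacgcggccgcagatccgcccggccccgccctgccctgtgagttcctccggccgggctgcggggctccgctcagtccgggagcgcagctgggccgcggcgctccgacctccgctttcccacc
CA9 held 1 match, on the other strand at bases -18 to -14, and ADM held 1, on its own strand at bases -101 to -97. BNIP3 held 6 matches between bases -143 and -100, and 2 of them overlap, since CACGTG reads as ACGTG on both strands.

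Of the 10 genes, 8 had a RefSeq promoter window, and HIF1A and PDK1 had 2 windows each. A match was present in a window of 7 of these 8 genes: HIF1A, EPAS1, CA9, ADM, ANGPTL4, BNIP3 and PDK1. Counted per window, 7 of the 10 windows of these genes held a match. The motif is common, as 48.4% of all 35116 promoter windows of this length held it, 21.4% as ACGTG and 36.5% as GCGTG. The matches of EPAS1 (bases -117 to -113) and HIF1A (bases -204 to -200) were GCGTG, and that of ANGPTL4 (bases -234 to -230) was ACGTG on the other strand. PDK1 held 2 ACGTG matches on the other strand, at bases -17 to -13 and -8 to -4 of its second window. EGLN3 held none in its window. No sequence of VEGFA or NDRG1 is given.

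**Figure D1:**
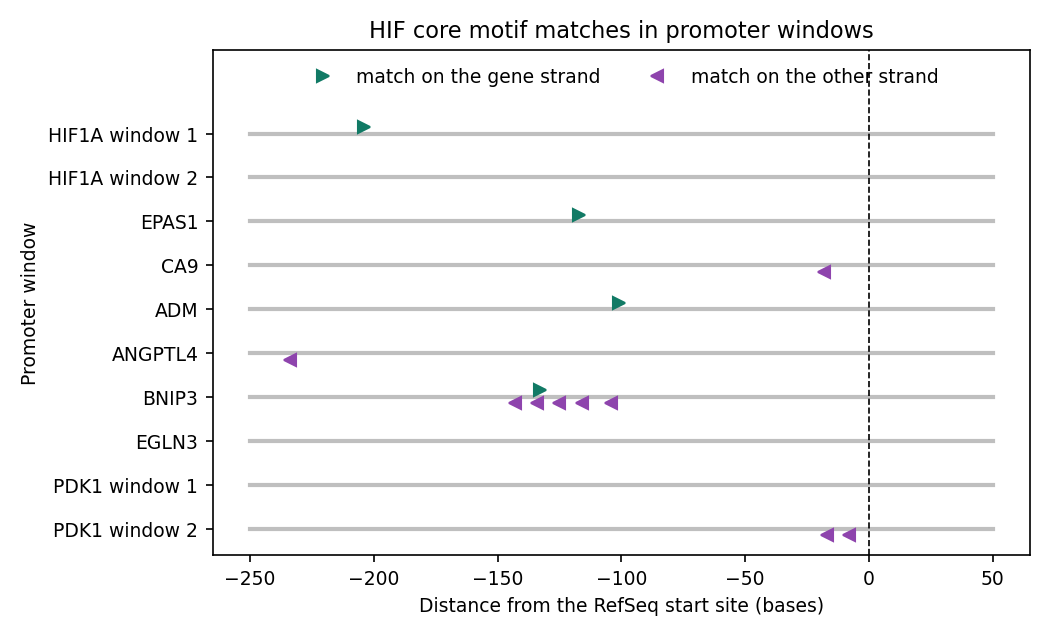
Matches to ACGTG or GCGTG (triangles, by strand) in the RefSeq promoter windows of 8 genes, placed by distance in bases from the start site (dashed line); grey bars span each window. BNIP3 held 6 matches, CA9, ADM, ANGPTL4, EPAS1 and HIF1A held 1 each, PDK1 held 2 and EGLN3 held none.

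The siRNA target was checked first. SMARCA4 stood at 60.5, 78.9 and 50.6 CPM (counts per 1000000 of the TMM-normalised library total) in siBRG1 libraries, against 244, 266 and 262 CPM in control libraries. All 3 control libraries are marked in the labels as reused from an earlier deposit and no siBRG1 library is, so deposit and siRNA cannot be told apart for any gene below. Gene counts ranged from 12391161 to 13369692 per siBRG1 library and from 40228678 to 49720320 per control library. Reads mapping to several places made up 18.5 to 21.5% of all reads in siBRG1 libraries and 9.57 to 10.0% in control libraries, and reads on no gene feature 3.85 to 4.20% in siBRG1 and 12.8 to 13.6% in control libraries. The part of these differences in the results was not tested. The 8 epithelial markers (4 higher, 2 lower) summed to 3488 to 3742 CPM in siBRG1 and 3942 to 4028 CPM in control libraries, nearly all from the keratins. EPCAM was low, at 1.61 ± 0.264 CPM in siBRG1 and 0.251 ± 0.0889 CPM in control libraries, as was CDH1, at 5.87 ± 1.35 CPM in siBRG1 and 3.05 ± 0.553 CPM in control libraries (SD, n = 3 each). Both are among the 4 higher, but EPCAM passed the count filter only through the siBRG1 libraries, where it is high. The call of EPCAM is thus no support for a rise. The 2 lower were KRT7 and KRT19. KRT7 stood at 36.9 ± 4.5 CPM in siBRG1 and 196 ± 9.1 CPM in control libraries. KRT19 stood at 609 ± 14.4 CPM in siBRG1 and 883 ± 20.4 CPM in control libraries. The 6 stromal fibroblast markers (5 higher, 1 lower) summed to 3238 to 3433 CPM in siBRG1 and 2359 to 2507 CPM in control libraries. Most of that sum was COL1A1, at 2536 ± 95.3 CPM in siBRG1 and 1955 ± 75.4 CPM in control libraries. LUM stood at 389 ± 23.3 CPM in siBRG1 and 82.3 ± 8.75 CPM in control libraries, and DCN at 51.5 ± 9.18 and 11.5 ± 2.51 CPM. The 1 lower was THY1, at 287 ± 7.37 CPM in siBRG1 and 323 ± 3.96 CPM in control libraries. The 5 immune markers (2 tested, 1 higher) summed to 9.76 to 10.4 CPM in siBRG1 and 3.98 to 5.37 CPM in control libraries, mostly CD14, with CD3E at 0 in all libraries. Whether replicates came from separate cultures is not stated, so the p-values reflect library-to-library spread alone, which may be technical.

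All 10 genes passed the filter on low counts. With edgeR's quasi-likelihood test and Benjamini-Hochberg adjustment over the 15830 genes tested, 4 of the 10 rose at an adjusted p under 0.05 (CA9, NDRG1, EPAS1 and EGLN3), 4 fell (ADM, ANGPTL4, VEGFA and BNIP3) and 2 did not pass (HIF1A and PDK1). Over all genes tested, 72.6% passed, 36.1% higher and 36.5% lower in siBRG1, so 8 of 10 lies near the share of any genes. The median log2 fold change was 0.02 over the 10 genes and -0.01 over all genes tested. A change of at least 2-fold was met by 5 of the 10, CA9, NDRG1, EPAS1, ADM and ANGPTL4, against 21.6% of all genes tested. ANGPTL4 met the count filter through the control libraries, where it is higher, and its groups overlapped. Its call held in 7 of 14 alternative fits, so it is no support for a fall. The 10 genes were chosen with earlier results of these data known, so no excess is read from the 5. CPM of siBRG1 and control libraries did not overlap for 8 of the 10 and for 74.3% of all genes tested. The known targets of HIF thus did not move in 1 direction.

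**Figure D2:**
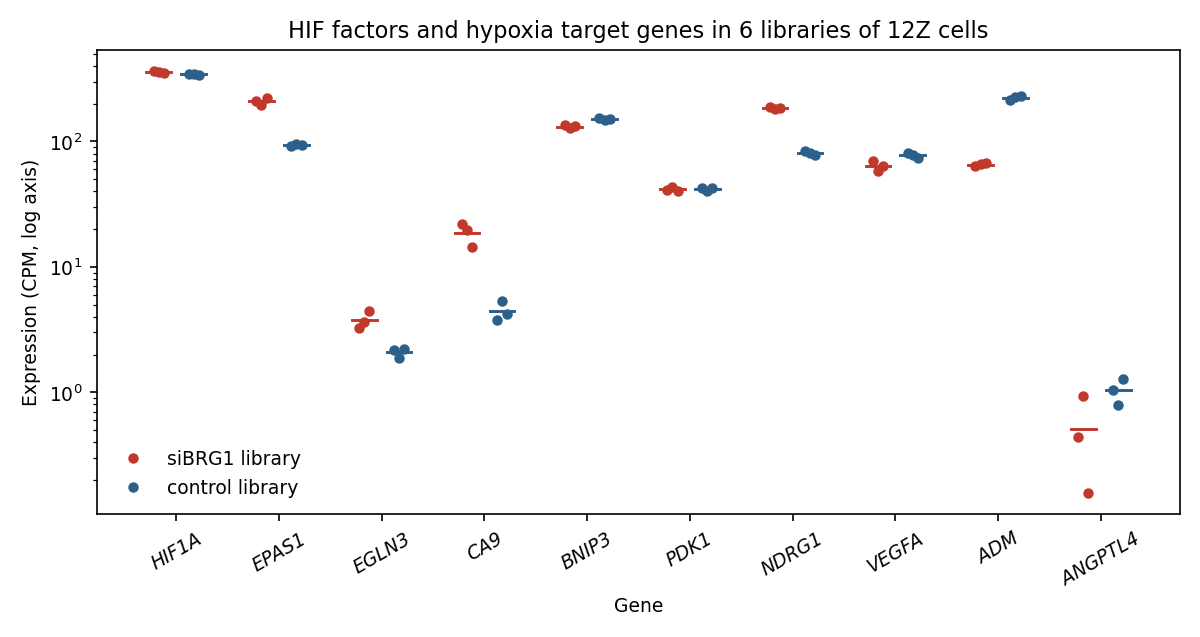
Expression of the 10 genes in CPM (log axis) in each siBRG1 library (red, left) and control library (blue, right), with the mean of 3 libraries as a bar. CA9, NDRG1, EPAS1 and EGLN3 are higher in all siBRG1 libraries, ADM, VEGFA and BNIP3 are lower in all of them, and the groups overlap for PDK1 and ANGPTL4.

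Of the factors, EPAS1 rose and HIF1A did not pass. HIF1A, on chromosome 14 (61695513 to 61748259, GRCh38), had 362, 355 and 353 CPM in siBRG1 libraries and 343, 345 and 338 CPM in control libraries. Every siBRG1 library was above every control library, but the gap was small, with a log2 fold change of 0.06 siBRG1 over control (SE of 0.0359) that did not pass (adjusted p = 0.138). It passed when the trends of each library on GC content and length were removed (log2 fold change 0.08, adjusted p = 0.0266).

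EPAS1, on chromosome 2 (46293667 to 46386703), had 209, 196 and 221 CPM in siBRG1 libraries and 92.5, 95.6 and 94.3 CPM in control libraries. The groups stood far apart, with means of 209 ± 12.9 CPM in siBRG1 and 94.1 ± 1.57 CPM in control libraries (SD, n = 3 each) and a log2 fold change of 1.15 (SE of 0.0444, adjusted p = 3.63e-19). Per kilobase of the longest coding transcript in GENCODE's basic set, the ratio of the EPAS1 level to the HIF1A level was 0.443, 0.422 and 0.480 in siBRG1 libraries and 0.206, 0.212 and 0.214 in control libraries. HIF1A was thus the more abundant transcript of the pair in all 6 libraries, by a smaller margin in siBRG1. EPAS1 is typical of endothelial cells, and 6 markers of that cell type (3 tested, 1 higher, 1 lower) summed to 15.1 to 21.3 CPM in siBRG1 and 17.4 to 20.1 CPM in control libraries. Most of that sum was KDR, at 14.6 ± 2.45 CPM in siBRG1 and 15.9 ± 1.20 CPM in control libraries (adjusted p = 0.314). CDH5 was 3.88-fold higher, on 79 counts over siBRG1 and 66 counts over the deeper control libraries (adjusted p = 6.25e-06). CDH5 met the count filter through the siBRG1 libraries, where it is high, so its call is no support for a rise. VWF fell by 0.69 on the log2 scale (adjusted p = 0.0301). TEK and PECAM1 had at most 4 counts over a group, and EMCN had 0 in all libraries. The part of these markers in the EPAS1 result was not tested. In bulk RNA, more cells of a type and more RNA per cell cannot be told apart.

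Among all genes with a mean of at least 50 counts, those whose log2 CPM over the 6 libraries lay closest to HIF1A after centring were MKRN1 and BCAR3, at a root mean square difference of 0.0137 and 0.0161. ANTXR1 and TMEM135 lay closest to EPAS1, at 0.0323 and 0.0417, with log2 fold changes of 1.20 and 1.23. With 2 groups of 3 libraries this measure largely reads the size of the group difference.

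CA9 encodes carbonic anhydrase IX, a cell-surface enzyme that helps hypoxic cells hold their pH and is widely used as a hypoxia marker. The gene (chromosome 9, 35673856 to 35681159) had 21.8, 19.5 and 14.5 CPM in siBRG1 libraries and 3.79, 5.38 and 4.20 CPM in control libraries. The lowest siBRG1 library was well above the highest control library. The log2 fold change was 2.07 (SE of 0.140, adjusted p = 1.18e-13), a 4.21-fold rise and the largest of the 10 genes. Of all genes tested, 6.23% had a larger absolute log2 fold change.

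NDRG1, a gene induced by hypoxia and by iron chelation (chromosome 8, 133237171 to 133302022), had 189, 180.2 and 183 CPM in siBRG1 libraries and 84.4, 81.4 and 78.0 CPM in control libraries. Its libraries were tightly grouped on both sides. The log2 fold change was 1.18 (SE of 0.0434, adjusted p = 1.12e-19). EGLN3, the HIF prolyl hydroxylase PHD3, itself a HIF target and so a feedback gene (chromosome 14, 33924231 to 34462774), was scarce, with 3.28, 3.61 and 4.47 CPM in siBRG1 libraries and 2.18, 1.89 and 2.21 CPM in control libraries. The groups did not overlap on 148 counts in all siBRG1 and 269 in all control libraries, and the log2 fold change was 0.85 (SE of 0.204, adjusted p = 0.000554). With control libraries thinned to the siBRG1 depth it was 1.20.

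ADM encodes adrenomedullin, a secreted peptide that widens vessels and acts on endothelium. The gene (chromosome 11, 10304680 to 10307397) had 63.4, 65.8 and 67.0 CPM in siBRG1 libraries and 212, 224 and 231 CPM in control libraries. The siBRG1 values were near one another and far below control, with a log2 fold change of -1.77 (SE of 0.0463, adjusted p = 2.84e-23). That is a 3.40-fold fall, the largest of the 10 genes and opposite in sign to the change of CA9. ADM made up 12.9 ± 0.666% of the summed CPM of the 8 targets in siBRG1 libraries and 38.3 ± 1.51% in control libraries (SD, n = 3 each), while NDRG1 made up 36.1 ± 0.115% in siBRG1 and 14.0 ± 0.611% in control libraries. The summed CPM of the 8 targets was 509 ± 13.5 in siBRG1 and 582 ± 3.06 in control libraries, so their composition differed more than their sum.

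VEGFA encodes the main secreted growth factor for vessels (chromosome 6, 43770184 to 43786487). It had 70.4, 57.6 and 63.4 CPM in siBRG1 libraries and 81.1, 77.6 and 73.8 CPM in control libraries. The groups did not overlap but lay close, with a log2 fold change of -0.28 (SE of 0.0590, adjusted p = 0.000127). It ranged from -0.35 without siBRG1 replicate 1 to -0.21 without siBRG1 replicate 2.

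ANGPTL4, a secreted inhibitor of lipoprotein lipase that also answers to PPAR receptors (chromosome 19, 8363289 to 8374373), was near the floor. It had 0.437, 0.941 and 0.157 CPM in siBRG1 libraries, from 6, 12 and 2 counts, and 1.05, 0.790 and 1.27 CPM in control libraries, from 51, 31 and 51 counts. The groups overlapped, and 3 counts stand for up to 0.235 CPM in an siBRG1 library. ANGPTL4 met the count filter through the control libraries, where it is higher. Its log2 fold change of -1.02 (SE of 0.439, adjusted p = 0.0392) was -1.77 without siBRG1 replicate 2 (adjusted p = 0.00338), but it was -0.60 when siBRG1 replicate 3 was left out (adjusted p = 0.219). The call was also lost without siBRG1 replicate 1 (adjusted p = 0.115), on dropping control replicate 1 (adjusted p = 0.0730) or 3 (adjusted p = 0.115), with a replicate block (adjusted p = 0.0516), with thinned control libraries (adjusted p = 0.0560) and with DESeq2 (adjusted p = 0.0690).

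The last pair of targets acts on mitochondria. BNIP3, a protein of the outer mitochondrial membrane that promotes mitophagy (chromosome 10, 131966455 to 131982013), had 135, 127 and 132 CPM in siBRG1 libraries and 154, 147 and 151 CPM in control libraries. Its groups did not overlap, and the fall was 1.14-fold (log2 fold change -0.19, SE of 0.0419, adjusted p = 0.000159). It was -0.37 with GC and length trends removed and -0.12 with unstranded counts. GENCODE lists 39 BNIP3 pseudogenes, which together held 41 counts in siBRG1 and 88 in control libraries, but reads that fit several copies equally are not counted. PDK1, the kinase that holds pyruvate out of the mitochondrial citrate cycle (chromosome 2, 172555373 to 172608669), had 41.2, 43.2 and 40.5 CPM in siBRG1 libraries and 42.7, 40.6 and 42.9 CPM in control libraries. The groups were interleaved (log2 fold change -0.02, SE of 0.0596, adjusted p = 0.825), and the value turned to 0.19 once GC and length trends were removed (adjusted p = 0.00565).

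**Figure D3:**
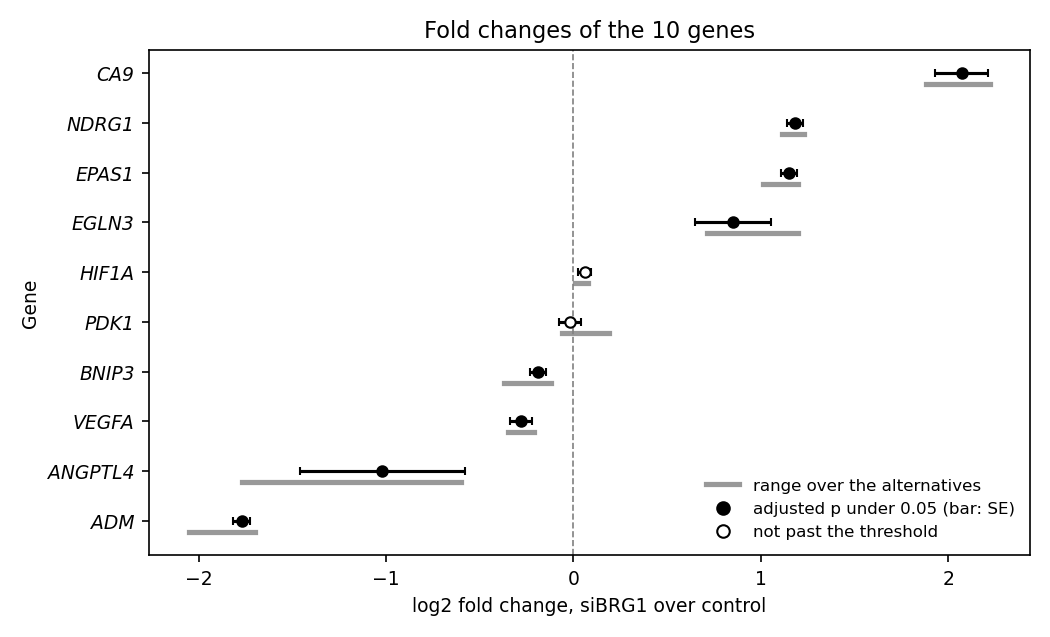
Log2 fold changes, siBRG1 over control, with their SE for the 10 genes (filled, adjusted p under 0.05; open, not), and in grey the range over the alternative settings. The range of ANGPTL4, -1.77 to -0.60, is the widest, and PDK1 is the 1 gene whose range spans 0.

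Per length, the levels fell into a wide span. In siBRG1 libraries the order was HIF1A at 90.1 ± 1.14 CPM per kilobase, NDRG1 at 49.0 ± 1.19, BNIP3 at 46.0 ± 1.33, EPAS1 at 40.4 ± 2.49, ADM at 34.6 ± 0.967, VEGFA at 18.1 ± 1.82, CA9 at 11.5 ± 2.30, PDK1 at 2.94 ± 0.0970, EGLN3 at 1.33 ± 0.216 and ANGPTL4 at 0.272 ± 0.211 (SD, n = 3). No neighbours in that order overlapped between libraries. In control libraries ADM stood first at 118 ± 4.88 CPM per kilobase, before HIF1A at 86.5 ± 0.960, BNIP3 at 52.6 ± 1.24, VEGFA at 21.9 ± 1.03, NDRG1 at 21.6 ± 0.850, EPAS1 at 18.2 ± 0.303, PDK1 at 2.97 ± 0.0890, CA9 at 2.75 ± 0.510, EGLN3 at 0.735 ± 0.0634 and ANGPTL4 at 0.551 ± 0.127. There VEGFA overlapped NDRG1, PDK1 overlapped CA9 and EGLN3 overlapped ANGPTL4. ADM thus held the fifth place in siBRG1 and the first in control, and NDRG1 the second in siBRG1 and the fifth in control. The length used for PDK1, 14193 bases, is that of 1 long annotated transcript, so its place is uncertain.

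**Figure D4:**
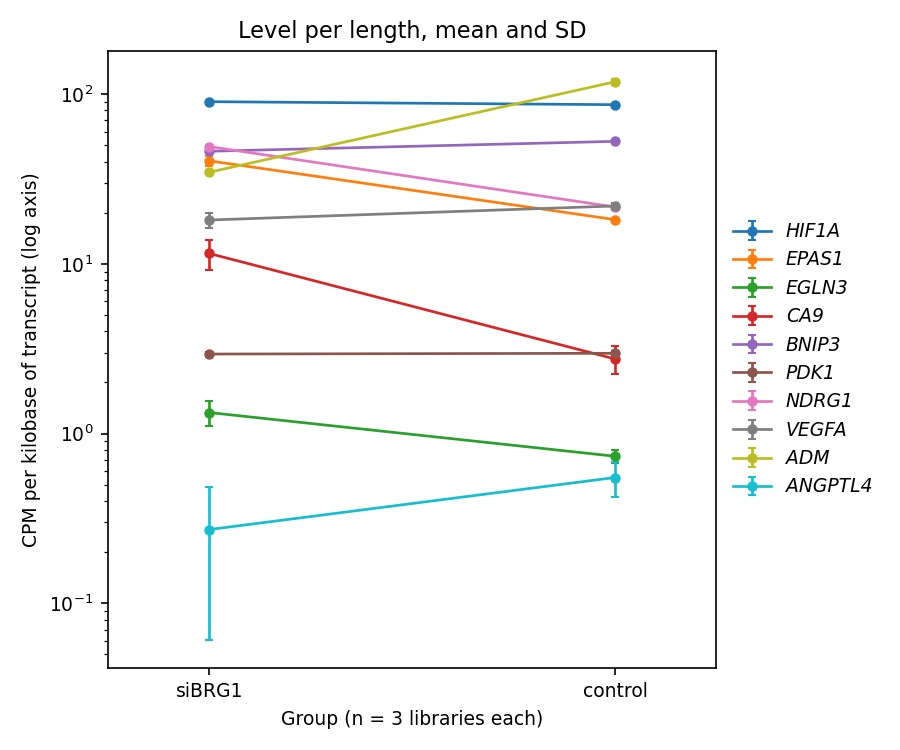
Level per length of the 10 genes in CPM per kilobase of the longest coding transcript (log axis) in siBRG1 and control libraries, as mean and SD of 3 libraries. The ADM line crosses those of HIF1A, BNIP3, NDRG1 and EPAS1, and the CA9 line rises above that of PDK1 in siBRG1.

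Replicates of a group differed by 1.11% (HIF1A, control) to 77.6% (ANGPTL4, siBRG1) of their mean. The coefficient of variation was under 5% in both groups for HIF1A, ADM, NDRG1, BNIP3 and PDK1. For EGLN3 it was 16.3% in siBRG1 and 8.63% in control libraries. In the authors' deposited table, which was made with DESeq2, the log2 fold changes of these genes had the same signs, among them 2.04 for CA9, 1.12 for EPAS1 and -1.79 for ADM. That table gave adjusted p-values of 0.314 for HIF1A, 0.581 for PDK1 and 0.0143 for ANGPTL4.

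The other genes of the pathway were read from lists that leave out the 10 genes. Of 6 further HIF subunits and cofactors, 5 were tested, of which 2 rose and 3 fell, beside 36.1% higher and 36.5% lower over all genes tested, and their median was -0.19 on the log2 scale. ARNT, the shared partner of both alpha subunits, rose to 53.3 ± 2.91 CPM in siBRG1 libraries, against 37.6 ± 0.399 CPM in the control group (log2 fold change 0.51, SE of 0.0584, adjusted p = 9.96e-09). ARNTL, a relative of ARNT best known from the circadian clock, rose by 0.27 (adjusted p = 0.0102), a call lost with unstranded counts, with thinned control libraries and without siBRG1 replicate 3 (adjusted p = 0.103). ARNT2, another relative, fell by 0.26 on the log2 scale. The histone acetyltransferases and HIF coactivators CREBBP and EP300 fell by 0.48 and 0.19. HIF3A was at or near 0 counts and was not tested.

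Of 12 further genes of oxygen sensing and HIF turnover, 3 rose, 6 fell and 3 did not pass, with a median of -0.12. The 75.0% that passed is near the 72.6% of all genes tested. EGLN1, the main HIF prolyl hydroxylase PHD2, stood at 101 ± 0.663 CPM in siBRG1 and 99.2 ± 0.856 CPM in control (log2 fold change 0.02, adjusted p = 0.663), and VHL at 60.9 ± 5.53 CPM in siBRG1 and 57.8 ± 2.60 CPM in control (log2 fold change 0.08, adjusted p = 0.258). VHL was called higher without siBRG1 replicate 2 (0.15, adjusted p = 0.0205) and with unstranded counts (0.14, adjusted p = 0.0378). EGLN2, which encodes PHD1, had 8.96, 7.45 and 6.59 CPM in siBRG1 libraries and 21.8, 22.3 and 22.5 CPM in control libraries (log2 fold change -1.53, SE of 0.104, adjusted p = 1.35e-13). The level of EGLN2 is uncertain, since 30.6% of its exonic bases are shared on the same strand with the readthrough gene RAB4B-EGLN2 and shared reads are not counted. HIF1AN, the asparagine hydroxylase FIH, fell by 0.31, and CITED2, which competes with HIF for its coactivators, fell by 0.32. Within the VHL ligase, ELOB and RBX1 rose by 0.62 and 0.47 and ELOC and CUL2 fell by 0.38 and 0.12, and CUL2 lost its call with unstranded counts (adjusted p = 0.174) and again on dropping siBRG1 replicate 2 (adjusted p = 0.0707). Of the SIAH ligases, which target prolyl hydroxylases, SIAH2 rose by 0.31, a call lost (adjusted p = 0.500) on removing GC and length trends, and SIAH1 missed the threshold at -0.12 (adjusted p = 0.0921). SIAH1 was called lower with unstranded counts (-0.58, adjusted p = 0.000131), without any count filter (adjusted p of 0.0373), in a fit of protein-coding genes alone (adjusted p of 0.0243) and when siBRG1 replicate 3 was dropped (adjusted p of 0.0484). HIF1A-AS2, an antisense transcript of HIF1A, had 5, 0 and 0 counts in siBRG1 libraries and 39, 30 and 46 in control libraries. It passed the count filter only through the deeper control libraries, where it is high, and with control libraries thinned it was not tested, so its call is no support for a fall, and 5 of the 6 falls stand without it. It was also not tested with at least 50 counts in 3 libraries, with protein-coding genes alone, or on dropping control replicate 1 or 3.

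**Figure D5:**
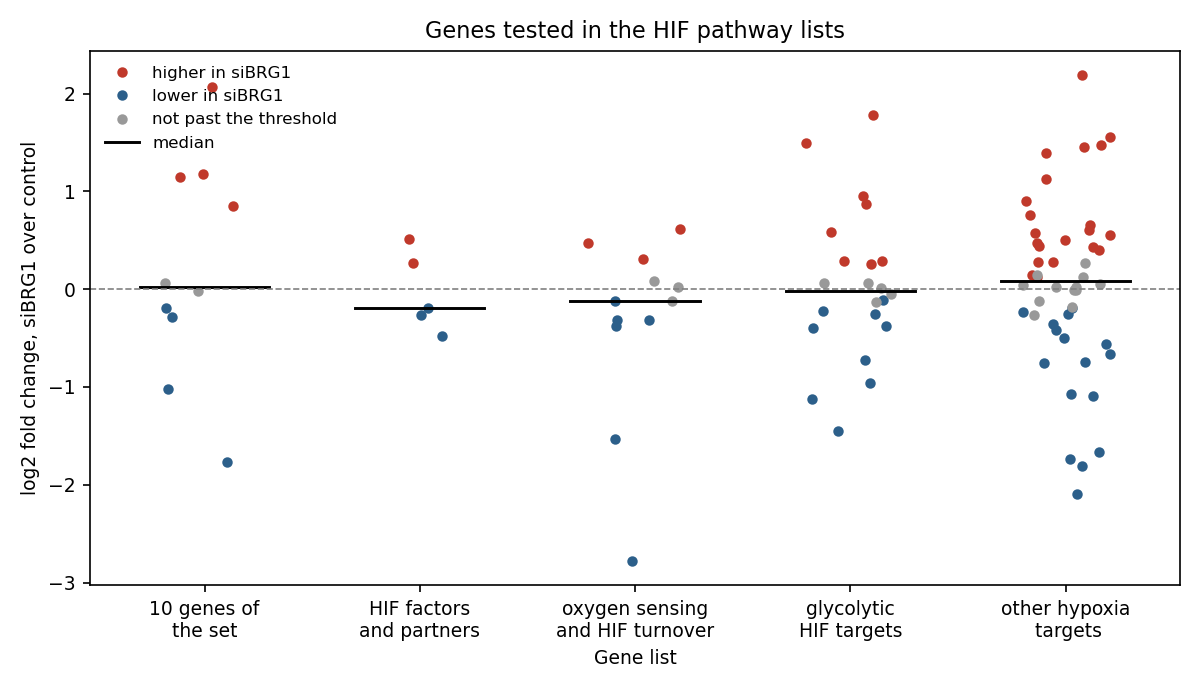
Log2 fold changes, siBRG1 over control, of the tested genes in the set of 10 and in the 4 pathway lists, coloured by call, with the median of each list as a line. Each list holds genes on both sides of 0, and the medians lie between -0.19 and 0.08; MIF, with 0 control counts, is not drawn.

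Of 22 glycolytic targets of HIF, all tested, 8 rose, 9 fell and 5 did not pass (77.3% passed, median -0.02). This share is near the 72.6% of all genes tested, of which 36.1% were higher and 36.5% lower. With GC and length trends removed, 14 fell. That fit also moved the calls over all genes, to 6066 lower and 5137 higher in place of 5782 and 5716. Nothing particular to glycolysis is read from the 14. The hexokinases HK2 and HK1, which trap glucose in the cell, fell, HK2 to 46.1 ± 1.60 CPM in siBRG1 libraries, against 126 ± 3.69 CPM in the control group (log2 fold change -1.45, SE of 0.0505, adjusted p = 2.72e-20) and HK1 by 0.96 on the log2 scale. GPI, PGAM1 and the glycogen synthase gene GYS1 fell by 1.12, 0.72 and 0.40. SLC2A3, the glucose transporter GLUT3, rose to 347 ± 31.6 CPM in siBRG1 libraries, against 123 ± 2.02 CPM in the control group (log2 fold change 1.50, SE of 0.0476, adjusted p = 3.19e-21). ALDOC, PFKFB4 and PFKL rose by log2 fold changes of 1.78, 0.95 and 0.87. ALDOA rose by 0.58, but 42.3% of its exonic bases are shared with another gene on its strand, so its level is uncertain.

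Of 53 other hypoxia targets, 50 were tested, of which 22 rose, 16 fell and 12 did not pass (76.0% passed, median 0.08). Over all genes tested, 72.6% passed, 36.1% higher and 36.5% lower, so this share too is near that of any genes. Among the largest rises were CCNG2, an atypical cyclin (log2 fold change 1.56), BHLHE40, a repressor of transcription (1.47), DDIT4, an inhibitor of mTORC1 also named REDD1 (1.45), and TMEM45A (1.39). DDIT4 stood at 58.9 ± 6.74 CPM in siBRG1 and 21.5 ± 0.811 CPM in control. Among the largest falls were STC2, a secreted stanniocalcin (log2 fold change -2.09), IGFBP3, an IGF-binding protein (-1.81), FLT1, a VEGF receptor (-1.74), and SLC6A8, the creatine transporter (-1.07). STC2 stood at 60.6 ± 4.07 CPM in siBRG1 and 258 ± 0.727 CPM in control. MIF, with 28 counts summed over siBRG1 and 0 summed over control libraries, was at least 30.5-fold higher when the control sum is set to 3 counts. MIF passed the count filter only through the siBRG1 libraries, where it is high. Its call, 1 of the 22 rises, is thus no support for a rise. It shares 32.2% of its exonic bases with AP000350.4 on the same strand, so that value is uncertain. TF, EPO and ANGPT2 were not tested for lack of counts.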

How the data were processed

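Directional mRNA libraries of 12Z cells were sequenced by the authors. Per the submitters' processing notes, cutadapt, Trim Galore, FastQC, STAR and DESeq2 were used on GRCh38.p12, with no versions and no annotation release given in the sources used here. The authors deposited raw read counts per gene for each library, in STAR's layout, in which reads fitting several places or several genes are not counted. The column of the strand that holds the gene reads was used, and the read totals outside genes were left out. The authors also deposited 1 table of their DESeq2 comparison, with log2 fold changes and their standard errors, p-values, a Wald statistic (a score), the mean normalised signal and a weight, per the file headers. Its log2 fold changes and adjusted p-values were copied for the 10 genes.

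Genes passing edgeR's filterByExpr (15830 of 58336) were tested with TMM normalisation and edgeR 4.0.16 (R 4.3.3, glmQLFit with robust estimation, glmQLFTest, two-sided, Benjamini-Hochberg over all genes tested, called at an adjusted p under 0.05), siBRG1 over control. Coordinates are those of GENCODE on GRCh38. Of the identifiers, 56888 matched with their version and 58216 with or without it. Promoter windows are RefSeq's on GRCh38.p14, and motifs were searched on both strands. The 10 genes and the pathway and marker lists were chosen with earlier results of these data known. The text names the 10 genes, every gene of the 2 lists of factors and of turnover, and up to 5 largest rises and falls with a mean of at least 50 counts in the other lists. It also names the 2 genes nearest to HIF1A and to EPAS1 over log2 CPM. Some genes that this rule takes are not reported here. TF, EPO, ANGPT2 and MIF were named after their values were seen. No exact permutation test of 3 against 3 libraries can go below p = 0.1, so none is given. Alternatives were DESeq2 1.42.0 and its size factors, other count filters, unstranded counts, protein-coding genes alone, removal of GC and length trends, a replicate block, control libraries thinned to the siBRG1 depth, and leaving out each library.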

Additional observations from a re-analysis of the deposited data

How the results depend on the processing

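Every fit that tested them kept the signs of the 8 called genes. The number of genes called over all ranged from 9697 with protein-coding genes alone to 12541 with no count filter, where the median log2 fold change of all genes was -0.30 in place of -0.01. Of the 10 genes, 4 were called higher in every fit except that with GC and length trends removed, where 6 were, HIF1A and PDK1 being added. PDK1 turned from -0.02 to 0.19 there (adjusted p = 0.00565), and 14 glycolytic genes in place of 9 fell. Over all genes, that fit called 5137 higher and 6066 lower, in place of 5716 and 5782. The cause was not tested. Between 3 and 4 genes were called lower, and ANGPTL4 was the gene lost or, with at least 50 counts in 3 libraries, not tested. Of the HIF factors and partners, 1 in place of 2 was higher with unstranded counts and with control libraries thinned, and 1 to 2 on leaving out 1 library, 1 being without siBRG1 replicate 3; ARNTL was the gene lost. Same-numbered libraries did not deviate together (correlations -0.0126, 0.022 and 0.00898), and the main fit held no pairing. With 3 libraries per group these values cannot decide whether same-numbered libraries shared a culture or batch. With a replicate block, 11194 genes were called, 4 of the 10 higher and 3 lower. DESeq2's Wald test called 10921. Counts limit ANGPTL4 (20 counts over the siBRG1 libraries) and EGLN3 (148) most.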

Other observations

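On the strand opposite to HIF1A, reads made up 0.581, 0.549 and 0.596% of the reads on both strands of the gene in siBRG1 libraries and 1.20, 0.965 and 0.955% in control libraries. The groups did not overlap, and no test was run. HIF1A was not alone in this among the genes followed. CA9 and ANGPTL4 were also lower in all siBRG1 libraries, CA9 at 0.0, 1.58 and 1.07% against 3.16, 4.09 and 4.52% in control libraries. BNIP3 and PDK1 were higher in all siBRG1 libraries, PDK1 at 5.51, 4.34 and 4.44% against 4.07, 2.8 and 2.82% in control libraries. How often such groups stay apart over all genes was not tested, so nothing particular to HIF1A is read from its gap. The share of opposite-strand reads over all genes was 6.03 ± 0.0826% in siBRG1 and 6.16 ± 0.0202% in control libraries (SD, n = 3 each).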
